A study of Mus musculus with 20 samples.

Results

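The fatty acid desaturases described here are the stearoyl-CoA desaturases Scd1, Scd2, Scd3 and Scd4 and the fatty acid desaturases Fads1, Fads2 and Fads3. Members were found by gene symbol. The set was put together with earlier results of these data known, among them that Scd1 is the most counted gene of most fat libraries. All 7 were found among the 48440 Ensembl gene IDs of the count table. The study sequenced RNA of 2 tissues, liver and gonadal fat pad, in C57BL/6 mice that were wild type (WT) or are described as deficient in protein kinase C epsilon, the product of Prkce. Mice of the second genotype, labelled AdEpsKO, are named KO below. What the label stands for is not stated, so neither the cells in which Prkce was targeted nor the part of the gene removed are known. All mice of both genotypes had eaten a high fat diet over 1 week and were killed after a fast of 6 h, so there was no group on another diet and no fed group. Each of the 4 groups (WT fat, KO fat, WT liver and KO liver) held 5 libraries from 5 mice, 20 in all.

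Desaturases place double bonds in fatty acyl chains. The stearoyl-CoA desaturases turn saturated acyl-CoA, made by fatty acid synthase or taken from the diet, into monounsaturated palmitoleate and oleate. Both occur as acyl chains of stored triglyceride. Fads2 and Fads1 act in turn on the essential fatty acids linoleate and alpha-linolenate, with an elongation by Elovl5 between them, to give arachidonate and other long polyunsaturated fatty acids, a route that is best known from liver. Fads3 acts on sphingoid bases. The desaturases take their electrons from cytochrome b5 and its reductase, and the Scd genes are classical targets of the factors SREBP-1c, LXR and ChREBP.

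All 7 genes lie on chromosome 19 (GRCm38), in 2 clusters. Scd3 (44203269 to 44244016), Scd2 (44293674 to 44306864) and Scd4 (44333092 to 44346743) are on the plus strand, and Scd1 (44394455 to 44407879) follows on the minus strand. Fads3 (10041569 to 10060110, plus), Fads2 (10062765 to 10101746, minus) and Fads1 (10182888 to 10196877, plus) form the second cluster. Membrane desaturases hold iron through histidines in short conserved boxes. The stretch of coding sequence around the second box shows how near the Scd copies are to each other, which bears on how reads can be assigned to them. It is given 5′ to 3′ on the coding strand from the reference transcripts, in lower case, with the codons of the 3 histidines in capitals.
Scd1: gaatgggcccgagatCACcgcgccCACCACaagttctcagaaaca
Scd2: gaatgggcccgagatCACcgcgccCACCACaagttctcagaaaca
Scd3: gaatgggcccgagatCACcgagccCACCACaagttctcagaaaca
Scd4: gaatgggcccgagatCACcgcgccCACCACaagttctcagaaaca
Fads1: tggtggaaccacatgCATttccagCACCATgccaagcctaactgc
Fads2: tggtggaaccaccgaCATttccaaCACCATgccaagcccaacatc
Fads3: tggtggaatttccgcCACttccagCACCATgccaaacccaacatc

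Each stretch of 45 bases lies in 1 coding exon: chr19:44401842-44401886 for Scd1, chr19:44299621-44299665 for Scd2, chr19:44235783-44235827 for Scd3 and chr19:44338922-44338966 for Scd4. Those of the Fads genes are chr19:10186770-10186814 (Fads1), chr19:10082631-10082675 (Fads2) and chr19:10054242-10054286 (Fads3). Over these bases Scd1, Scd2 and Scd4 were identical, and Scd3 differed from them at 1 base, whereas Fads2 differed from Fads1 at 7 bases and Fads3 at 11. Over the whole aligned coding sequence, Scd1 shared 90.3% of bases with Scd2, 91.5% with Scd3 and 86% with Scd4. The Fads genes shared 67.9% (Fads1 and Fads2), 66.6% (Fads1 and Fads3) and 71.1% (Fads2 and Fads3). Of all stretches of 50 bases in the longest transcript, 4.66% of those of Scd1, 3.79% of Scd2, 6.37% of Scd3 and 3.44% of Scd4 occur also in another of the 7 genes, against at most 0.161% for a Fads gene. Reads from such stretches cannot be given to 1 Scd gene by sequence alone. The deposited values of all 7 genes were nevertheless whole numbers in each of the 20 libraries. The sources used here do not say how the counting assigned reads from shared stretches, so the low counts of Scd3 and Scd4 are uncertain beside the far more abundant Scd1.

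Total expected counts per library ran from 12880933 to 17276907 in fat and from 13836370 to 20784145 in liver. Levels are given below in CPM, the count of a gene relative to the size of its library, with library sizes scaled by TMM over all 20 libraries. The tissue labels held against marker genes: the summed level of 8 adipocyte markers was 14617 to 26988 CPM in fat and at most 199 CPM in liver, and that of 8 hepatocyte markers at least 141235 CPM in liver and at most 436 CPM in fat. Prkce, the targeted gene, stood at 37.1, 44.5, 25.8, 48.2 and 26.5 CPM in the 5 WT fat libraries and at 24.8, 25.6, 16.1, 25.3 and 20.7 CPM in KO fat, with no overlap (exact permutation of log2 CPM, two-sided p = 0.00794, the smallest that 5 against 5 can give). In liver the Prkce ranges overlapped, with 14.7 to 27.4 CPM in WT and 12 to 20 CPM in KO (exact permutation p = 0.135). In bulk tissue, fewer cells of a type and less RNA per cell cannot be told apart.

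Scd1, the main stearoyl-CoA desaturase of fat and liver, was the desaturase with the highest level in each group. It took from 1.19% to 4.78% of all counts in the fat libraries and ranked first among all genes in 8 of these 10, and it took from 0.186% to 2.38% of counts in liver. In WT fat the 5 libraries held 26779.9, 32011, 8187, 22482 and 14792 CPM. In KO fat they held 29832, 31639, 20016, 19080.3 and 35760.1 CPM. The ranges overlapped, the lowest library was WT fat 3, and KO fat 5 was the only KO library above the highest WT library.

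In WT liver, Scd1 stood at 9089.9, 7591, 3739.6, 6125 and 6449.8 CPM. The KO liver libraries held 34401, 7696, 7912, 6947 and 2553 CPM. KO liver 1 thus lay above every other liver library and within the range of fat, and KO liver 5 lay below every other liver library. By group mean the order was KO fat (27265 ± 7373 CPM), WT fat (20851 ± 9479.6), KO liver (11902 ± 12765) and WT liver (6599 ± 1976; SD, n = 5 each), and each neighbouring pair in this order overlapped.

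Scd2, the second stearoyl-CoA desaturase, best known from brain and from early development, had a level of 390.5, 411, 199, 152 and 227 CPM in the WT fat libraries. In KO fat the values were 595, 839, 313, 291 and 617 CPM. KO fat 1, 2 and 5 lay above all WT libraries, and KO fat 3 and 4 lay within the WT range. In liver Scd2 was low, with 14, 12.1, 15.4, 8.85 and 15 CPM in WT and 15.7, 13.6, 8.2, 13.8 and 10.3 CPM in KO, and the genotypes overlapped. The order of group means was KO fat (531 ± 230.0 CPM), WT fat (276 ± 117), WT liver (13.1 ± 2.67) and KO liver (12.3 ± 3.02), with overlap between the genotypes of a tissue and none between the tissues.

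Scd3 and Scd4, copies that are known from skin and from heart respectively, were close to absent. Scd3 had 5, 8, 2, 2 and 3 counts in the WT fat libraries and 5, 8, 4, 3 and 12 in KO fat. The sums were 20 (exact 95% Poisson interval 12.2 to 30.9) and 32 (21.9 to 45.2), intervals that cover counting error only. In WT liver the Scd3 sum was 3 counts, and in KO liver it was 7, all in KO liver 1, the library with the most Scd1. The other 4 KO liver libraries held 0, which allows up to 3 counts each by a one-sided 95% bound, whereas the intervals above are two-sided. Whether these 7 counts came from Scd3 or from Scd1, which shares stretches with it, cannot be told apart.

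Scd4 had 4, 6, 7, 4 and 7 counts in WT fat and 5, 7, 5, 2 and 4 in KO fat, with sums of 28 (18.6 to 40.5) and 23 (14.6 to 34.5). In liver its sums were 3 counts in WT and 7 in KO, with at most 3 in any library. For both copies the counts overlapped between the genotypes of each tissue, and neither gene passed the filter on low counts in any comparison. The 5 genes tested were therefore Scd1, Scd2, Fads1, Fads2 and Fads3.

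Fads2, which takes the first and rate-limiting step of polyunsaturated fatty acid synthesis, stood at 775, 791, 905, 580.3 and 679 CPM in WT liver. The KO liver libraries held 1063, 836, 681, 543 and 552 CPM, so KO liver 1 was highest and the KO values spanned the WT range on both sides. In WT fat Fads2 was at 8.99, 9.93, 13.4, 11.5 and 10.6 CPM. In KO fat it was at 10.4, 41, 12.2, 7.9 and 8.13 CPM. KO fat 2 thus stood apart from the other 9 fat libraries, none of which passed 13.4 CPM. WT fat 4 and KO fat 3 held more hepatocyte transcripts (436 and 413 CPM) than the other fat libraries (10.1 to 66.1 CPM), with Fads2 at 11.5 and 12.2 CPM. The order of means was WT liver (746 ± 123 CPM), KO liver (735 ± 218), KO fat (15.9 ± 14.1) and WT fat (10.9 ± 1.67), with no overlap between tissues.

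Fads1, the second desaturase of that route, had levels of 1056, 1156, 1173, 984 and 1059 CPM in WT liver, the closest agreement of the 5 tested genes (coefficient of variation 7.2%). The KO liver libraries held 1499, 1188, 1107, 894 and 890.2 CPM, with KO liver 1 again highest and a wider spread (22.5%). In fat the values were 82.6, 90.7, 85.5, 102 and 66.4 CPM in WT and 87.6, 94.9, 91.8, 63.7 and 47.8 CPM in KO. The fat ranges overlapped, and KO fat 5, the library with the highest Scd1, had the lowest Fads1. Means were 1116 ± 251 (KO liver), 1086 ± 78.2 (WT liver), 85.5 ± 13.1 (WT fat) and 77.1 ± 20.5 CPM (KO fat), in that order and with no overlap between tissues.

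Fads3 was the only Fads gene with its higher level in fat. It stood at 576, 558, 283, 455 and 480.4 CPM in WT fat and at 527, 305, 307, 473 and 523 CPM in KO fat. In liver it was at 24, 19.8, 21.2, 13.3 and 19.7 CPM in WT and 26.1, 22.4, 19.1, 23.6 and 21.8 CPM in KO. The genotypes overlapped in both tissues and the tissues did not, with means of 470.4 ± 116 (WT fat), 427 ± 112 (KO fat), 22.6 ± 2.55 (KO liver) and 19.6 ± 3.92 CPM (WT liver).

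**Figure D1:**
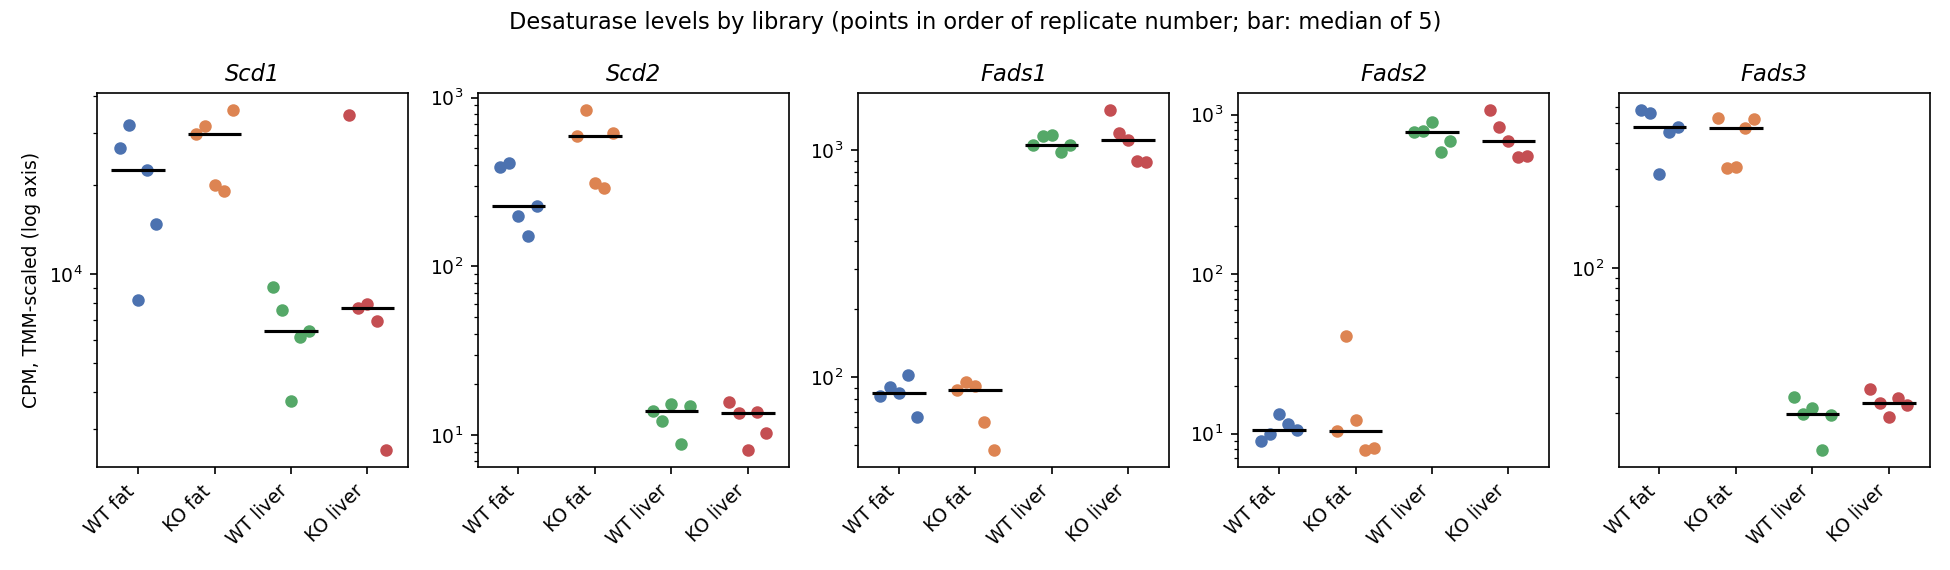
Level of the 5 tested desaturases in CPM (log axis) in each library of the 4 groups; each point is 1 library and the bar is the median of 5. Scd1 of KO liver 1 (34401 CPM) lies among the fat libraries, Fads2 of KO fat 2 (41 CPM) lies above the other fat libraries, and Scd2, Fads1, Fads2 and Fads3 separate the tissues.

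Levels of different genes were compared only after division by the length of the longest transcript in kb. In WT fat the order was Scd1 (4315 ± 1962 CPM per kb), Fads3 (128 ± 31.6), Scd2 (50.6 ± 21.5), Fads1 (24.7 ± 3.79), Fads2 (3.46 ± 0.53), Scd4 (0.0806 ± 0.0229) and Scd3 (0.0535 ± 0.0311). In WT liver it was Scd1 (1366 ± 409), Fads1 (314 ± 22.6), Fads2 (237 ± 38.9), Fads3 (5.31 ± 1.06) and Scd2 (2.39 ± 0.489), with Scd4 and Scd3 at about 0.0156 and 0.0151 CPM per kb. Fat and liver thus shared Scd1 as the highest desaturase and differed in what came next, Fads3 and Scd2 in fat and Fads1 and Fads2 in liver. In KO fat, Scd2 (97.4 ± 42.2 CPM per kb) overlapped with Fads3 (116 ± 30.5), and the order was otherwise Scd1 (5643 ± 1526), Fads1 (22.3 ± 5.93), Fads2 (5.05 ± 4.48), Scd3 and Scd4. The order in KO liver was that of WT liver, from Scd1 (2463 ± 2642) and Fads1 (322 ± 72.6) to Fads2 (233 ± 69.4), Fads3 (6.13 ± 0.693) and Scd2 (2.26 ± 0.553). Neighbours in the WT orders whose libraries overlapped were Scd2 with Fads1 and Scd4 with Scd3 in WT fat, and Fads1 with Fads2 and Scd4 with Scd3 in WT liver. Of the summed level of all 7 genes per kb, Scd1 made up 92.3% to 96.3% in WT fat, 95.1% to 96.5% in KO fat, 54.9% to 77.1% in WT liver and 54.5% to 90.1% in KO liver.

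The comparison of fat with liver asked which desaturases belong to which tissue, in each genotype alone. In WT mice, Scd2 was 21.2-fold higher in fat (95% interval 13.3 to 33.95), Fads3 24.1-fold higher (16.9 to 34.4) and Scd1 3.18-fold higher (1.69 to 5.97). Fads1 was lower in fat, at a fat to liver ratio of 0.0792 (0.0619 to 0.101), and so was Fads2, at 0.0147 (0.011 to 0.0196). All 5 passed the test by edgeR, 3 as higher and 2 as lower in fat, with adjusted p-values from 2.15e-10 for Fads2 to 0.00319 for Scd1. The background is wide, since 74.3% of the 14739 genes tested in WT were called, 38.4% as higher and 35.9% as lower in fat, so a call in this comparison is not particular to a desaturase. Between WT fat and WT liver the ranges of Scd2, Fads1, Fads2 and Fads3 did not overlap, as for 62.4% of genes, and that of Scd1 did (8187 CPM lowest in fat, 9089.9 CPM highest in liver). By size, 11.4% of genes differed by more than 4 on the log2 scale, as Scd2 (4.41), Fads3 (4.59) and Fads2 (-6.09) did, and 8.33% by more than 5.

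In KO mice, the comparison shares no library with that in WT. Scd2 was 44.1-fold higher in fat (25.5 to 76.3) and Fads3 19.3-fold higher (14.2 to 26.3), while Fads1 was at a fat to liver ratio of 0.0707 (0.0484 to 0.103) and Fads2 at 0.0222 (0.00955 to 0.0514). Without KO fat 2 the log2 difference of Fads2 went from -5.50 to -6.22. These 4 passed by edgeR (adjusted p from 6.94e-09 to 4.62e-06), 2 as higher (38.8% of 14603 genes) and 2 as lower (35.6%), where 74.4% of genes were called. Their ranges did not overlap in KO, as for 63.1% of genes, and they were called in the same direction in both genotypes, as were 68.2% of 14386 genes. Scd1 had a ratio of 2.34 (0.912 to 6.02) and did not pass (adjusted p = 0.0925). Without KO liver 1 its ratio on the log2 scale went from 1.23 to 2.15 and it passed (adjusted p = 0.001 by edgeR). Of the alternatives, 6 made it pass and 15 left it short of the threshold. Among those passing were a fit of all 20 libraries (1.2, adjusted p = 0.0462 by edgeR) and no scaling factors (2.15, 0.00493). With RLE size factors it did not pass (1.21, adjusted p = 0.0963 by edgeR). With single libraries left out, its adjusted p by edgeR was at most 0.166.

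The size of a tissue difference depended on the scaling. TMM factors were 1.3 to 1.46 in fat and 0.692 to 0.761 in liver. With upper quartile factors the median of all genes in WT moved from 0.04 to 0.34 on the log2 scale, and without factors to 0.97, and the split of called genes went from 5663 higher and 5284 lower to 7168 and 3845, and to 10593 and 2246. Relative to that median, the WT difference of Scd1 was 1.63 with TMM, 1.63 with upper quartile factors and 1.61 without factors, and that of Fads1 was -3.70 each time. The tissue differences below are with TMM, and without factors each lies about 0.93 higher on the log2 scale.

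**Figure D2:**
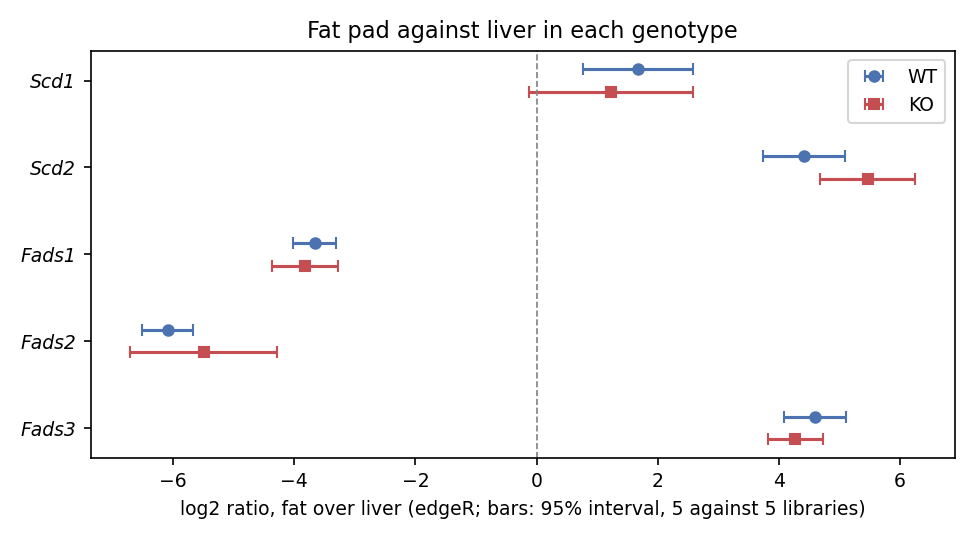
Log2 ratio of fat over liver for the 5 tested desaturases, with WT and KO mice shown separately; points are edgeR estimates and bars their 95% intervals. The estimates of Scd2 and Fads3 lie above 4 and those of Fads1 and Fads2 below -3 in both genotypes, and the interval of Scd1 in KO includes 0.

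Genes that work with the desaturases were listed by role, and each count of called genes is to be read against the 38.4% higher and 35.9% lower in fat over all genes in WT. Of the electron donors, 5 were tested in WT, of which 4 were lower in fat and 1 was higher. Cytochrome b5 (Cyb5a) was at 311 ± 52.2 CPM in WT fat and 1174 ± 115 CPM in WT liver, and its reductase Cyb5r3 at 139 ± 17 and 459 ± 55.9 CPM, whereas the reductase-like Cyb5r1 was higher in fat (ratio 2.4). The outer mitochondrial form Cyb5b had a ratio of 0.538 (-0.89 on the log2 scale), a difference no larger than that shift. Of 12 elongation genes tested in WT, 3 were higher and 5 lower in fat, shares near those of all genes. Elovl5, which elongates the product of Fads2, was at 76.6 ± 5 CPM in WT fat and 498 ± 121 CPM in WT liver, and Elovl2, which acts further down the same route, at 0.102, 0.171, 0.0508, 3.92 and 0.0947 CPM in the WT fat libraries and 1084 ± 297 CPM in WT liver. The high fat value is that of WT fat 4, the library with hepatocyte transcripts. Hacd3, a dehydratase of the elongation cycle, had a fat to liver ratio of 0.0894 and its muscle-type relative Hacd1 one of 1.91.

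All 6 of the peroxisomal genes that shorten long polyunsaturated chains were lower in fat than in liver in both genotypes, with a median log2 difference of -2.22 in WT against 0.04 over all genes tested. Ehhadh and Acaa1b, enzymes of peroxisomal beta-oxidation, had ratios of 0.113 and 0.063, and Scp2, its sterol carrier thiolase, had one of 0.231. Of 12 fatty acid synthesis genes, 6 were higher and 2 lower in WT fat, against 38.4% and 35.9% of all genes. G6pdx and Pgd, which make the NADPH for synthesis, had ratios of 25 and 7.74, and Pklr, the pyruvate kinase of liver, one of 0.00107. Pklr stood at 1.61 CPM in WT fat 4, the library with hepatocyte transcripts, and at 0.0511 to 0.189 CPM in the other WT fat libraries, so the size of its ratio depends on that library, while every WT liver library held at least 320.9 CPM. Of 18 regulators, 2 were higher and 12 lower in WT fat. Pparg, the adipocyte receptor, had a ratio of 14.5, and Ppara, the receptor of the fasted liver, one of 0.0295. Scap and Rxra, partners of SREBP and of nuclear receptors, were at 0.21 and 0.204.

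Of 23 genes of cholesterol synthesis and uptake, 20 were lower in WT fat than in WT liver and 0 higher, where 35.9% of all genes were lower and 38.4% higher, with a median log2 difference of -2.51 against 0.04 over all genes. Ebp, Stard4 and Hsd17b7 had fat to liver ratios of 0.117, 0.0592 and 0.0782. Of 14 genes that use desaturated chains, 4 were higher and 7 lower in WT fat, not far from the shares of all genes. Dgat1, which closes triglyceride synthesis, had a ratio of 8.74, whereas Soat2, the cholesterol esterifying enzyme of liver, had one of 0.00968 and the acyl-CoA synthetases Acsl3 and Acsl5 ones of 0.212 and 0.112. Of 11 PPAR alpha targets 1 was higher and 10 were lower in WT fat, and of 8 LXR targets 3 and 4, the latter near the shares of all genes.

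KO was compared with WT in each tissue to ask whether the desaturases differed between the genotypes. Prkce itself was lower in KO fat, was still counted in every KO library, and overlapped between the genotypes in liver. None of the 5 tested genes passed in fat, where 0% of the 14707 genes tested were called at an adjusted p under 0.05 by edgeR. Prkce, the targeted gene, was thus not called by this test either. By limma-voom 0 genes were called in fat and by DESeq2 13, none of them a desaturase. Scd2 came nearest, at 1.92 times the WT level in KO (95% interval 1.1 to 3.36), with an edgeR p of 0.0265 and an adjusted p of 0.687. Before adjustment, 1048 genes in fat (7.13%) had a p under 0.05, and 2.39% had a difference as large as that of Scd2. All 5 KO fat values of Scd2 lay above the WT mean, and by exact permutation of log2 CPM the two-sided p was 0.0556. Without any single library the log2 difference of Scd2 ran from 0.72, without KO fat 2, to 1.13. KO fat 2, which had the highest Scd2, is also the library with urothelial transcripts described below.

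The ratio of Scd1 in fat was 1.3 (0.75 to 2.26; adjusted p = 0.831), or 0.38 on the log2 scale, and 0.18 without WT fat 3. That library had the lowest Scd1 and Fads3 of all fat libraries and, among WT fat libraries, the lowest adipocyte sum (17998 CPM) and the highest sums of macrophage (1711 CPM) and erythroid markers (2172 CPM), and their part in the result was not tested. Fads1 had a KO to WT ratio of 0.9 in fat (0.673 to 1.2) and Fads3 one of 0.906 (0.633 to 1.3). For Fads2 the ratio was 1.46 (0.746 to 2.84), and without KO fat 2 its log2 difference turned from 0.54 to -0.17. KO fat 2 held 1783 CPM of 8 urothelial markers, against 46.8 to 190 CPM in the other 9 fat libraries. In it Upk3a stood at 279 CPM, against at most 0.639 CPM elsewhere in fat, and keratins Krt5 and Krt18 at 163 and 249 CPM. This library also had the lowest adipocyte sum (14617 CPM). The part of these transcripts in the Fads2 and Scd2 levels was not tested. Over all KO fat libraries the adipocyte sum ran from 14617 to 21723 CPM, and over WT fat from 17998 to 26988 CPM.

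In liver none of the 5 passed, where 0.00752% of the 13298 genes tested (1 gene) were called by edgeR. The KO to WT ratio was 1.79 for Scd1 (0.659 to 4.85; adjusted p = 0.596), 0.934 for Scd2 (0.708 to 1.23), 1.02 for Fads1 (0.832 to 1.25), 0.977 for Fads2 (0.745 to 1.28) and 1.15 for Fads3 (0.932 to 1.41). The ranges of the genotypes overlapped for all 5 in both tissues, where 2.84% of genes in liver and 1.26% in fat had ranges that did not overlap. For Scd1, the log2 difference of 0.84 became -0.08 without KO liver 1. The upper ends of the intervals, 1.25 for Fads1 and 1.28 for Fads2, bound a rise of these genes more closely than that of Scd1.

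The difference of the KO effect between fat and liver was tested in 1 fit of all 20 libraries. For Scd2 it was 1.03 on the log2 scale (KO effect larger in fat), with an adjusted p of 0.903 by edgeR, where 0% of 15652 genes were called and 839 (5.36%) had an unadjusted p under 0.05. DESeq2 called 2 genes and limma-voom 0. Scd1 differed by -0.46, Fads1 by -0.19, Fads2 by 0.57 and Fads3 by -0.35, none of which passed. Scd1 changed sign without KO liver 1 (0.46), and so did Fads2 without KO fat 2 (-0.15).

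**Figure D3:**
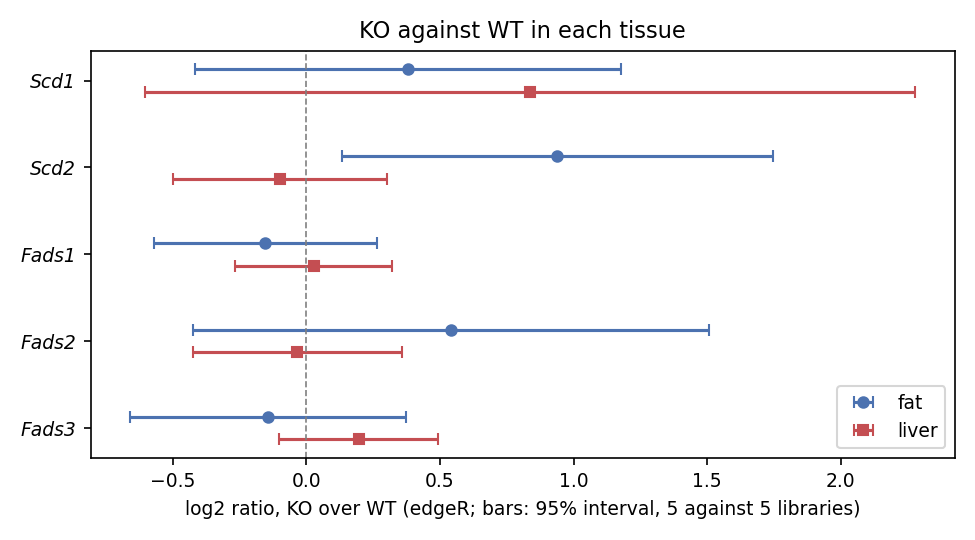
Log2 ratio of KO over WT for the 5 tested desaturases in fat and in liver; points are edgeR estimates and bars their 95% intervals. The interval of Scd2 in fat (0.13 to 1.75) is the only one that excludes 0, and that of Scd1 in liver (-0.60 to 2.28) is the widest.

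Ratios within a library do not depend on its scaling. Per kb, Scd2 made up 1.28%, 1.12%, 2.11%, 0.597% and 1.34% of Scd1 plus Scd2 in WT fat and 1.74%, 2.29%, 1.37%, 1.33% and 1.51% in KO fat. The groups overlapped, and the log2 difference of the Scd2 to Scd1 ratio was 0.44 (two-sided exact permutation test, p = 0.23, adjusted over 4 ratio tests 0.46). In liver the share was 0.128% to 0.363% in WT and 0.0404% to 0.355% in KO. These groups overlapped too (log2 difference -0.47, exact permutation p = 0.46, adjusted 0.46). With single libraries left out, the fat difference ran from 0.19 (without WT fat 4, exact permutation p = 0.46) to 0.65 (without WT fat 3, exact permutation p = 0.0159, not adjusted), and the latter was the only one of the 10 with a p under 0.05.

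The ratio of Fads2 to Fads1 per kb was 0.807, 0.752, 0.847, 0.647 and 0.705 in WT liver and 0.779, 0.773, 0.676, 0.668 and 0.681 in KO liver. The groups overlapped, with a log2 difference of -0.07 (exact permutation p = 0.421, adjusted 0.46). In fat the ratio was 0.12 to 0.175 in WT, and 0.131, 0.474, 0.146, 0.136 and 0.187 in KO, with KO fat 2 standing apart (log2 difference 0.42, exact permutation p = 0.333, adjusted 0.46). Every liver library thus had a higher ratio than every fat library.

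With the genotype mean removed, the levels of some pairs of desaturases were correlated among mice, positively or negatively. The 10 pairs of tested genes were correlated in each tissue over 10 libraries, on log2 CPM less the genotype mean, and 3 of these 20 correlations passed after adjustment. Fads1 and Fads2 in liver had Pearson r = 0.955 (permutation p = 0.00028, adjusted 0.0056) and Spearman rho = 0.94 (permutation p = 0.0025, adjusted 0.0454), with r = 0.92 without the 2 libraries farthest from the median of Fads1. With any single library left out, r ran from 0.92 to 0.97 and passed each time.

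Fads2 and Fads3 in fat had r = -0.65 (permutation p = 0.00282, adjusted 0.0188) and rho = -0.82 (permutation p = 0.00454, adjusted 0.0454), with r = -0.76 without the 2 farthest libraries. Leaving out single libraries gave r from -0.81 to -0.60, and the adjusted p rose above the threshold in 5 of 10 cases, to at most 0.142. KO fat 2 (Fads2 41 CPM, Fads3 305 CPM) and WT fat 3 (13.4 and 283 CPM) had the highest Fads2 and lowest Fads3 of their genotypes. They also had the lowest adipocyte sums of their genotypes. The part of cell make-up in this correlation was not tested. Scd2 and Fads3 in liver, both low there, had r = 0.84 (permutation p = 0.00264, adjusted 0.0188), rho = 0.72 (permutation p = 0.0288, adjusted 0.192) and r = 0.50 without the 2 farthest libraries, and lost the call in 4 of 10 cases. Scd1 and Scd2 in fat had r = 0.66 and rho = 0.66 (permutation p = 0.0456 and 0.0406, adjusted 0.182 and 0.203), and r = 0.67 without the 2 farthest libraries. Scd1 and Fads1 in liver, at r = 0.76 (permutation p = 0.0903, adjusted 0.258), fell to -0.07 without the 2 farthest libraries, so this value rested on those libraries.

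**Figure D4:**
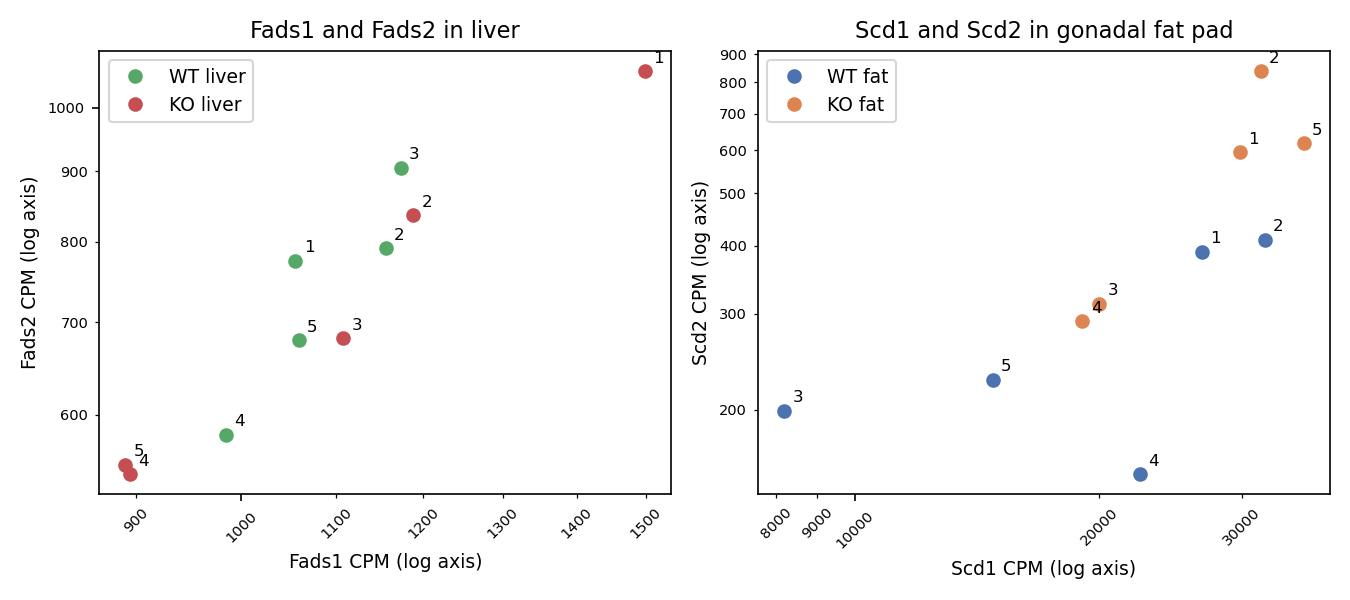
Left, Fads2 against Fads1 in the 10 liver libraries; right, Scd2 against Scd1 in the 10 fat libraries, in CPM on log axes, with replicate numbers beside the points. Fads1 and Fads2 rise together in liver, from 543 to 1063 CPM for Fads2, and in fat KO 1, 2 and 5 hold the highest Scd2.

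For Scd1, Scd2, Fads1 and Fads2, the 5 most similar genes were found by Pearson r of log2 CPM less the genotype mean over the 10 libraries of a tissue, among 8939 genes in fat and 8655 in liver with a mean of at least 10 CPM. These are descriptions, since the highest of so many correlations over 10 libraries are high by selection. For Scd1 in liver they were Ogdh (r = 0.97), a subunit of the 2-oxoglutarate dehydrogenase complex, the fructokinase Khk (0.96), Tmem14c, Mast3 and Tecr, the last enzyme of fatty acid elongation (0.95). Without KO liver 1 their r ran from 0.87 to 0.97, with Khk at 0.97. For Fads1 in liver they were Fdps, a synthase of the mevalonate pathway (0.96), Fads2, the acyl-CoA synthetase Acsl5, Rdh11 and Itpripl1. For Fads2 they were Dhcr7, the last enzyme of cholesterol synthesis (0.96), Fads1, Acsl5, Itpripl1 and Rad51d. Acsl5 and Itpripl1 stood in both lists, which are not independent, since Fads1 and Fads2 correlated at r = 0.955 over the same libraries. Without KO liver 1, r ran from 0.87 to 0.92 in the Fads1 list and from 0.85 to 0.95 in the Fads2 list.

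In fat, the 5 genes most like Scd2 were Pgd, a source of NADPH (0.96), Pmvk, a kinase of the mevalonate pathway (0.95), Adrm1, Txnl1 and Usp46, with r from 0.91 to 0.95 without KO fat 2. For Scd1 they were Ndufa8 (0.97), Ppp1r2, Dhrs7, Fam135a and Chpt1, a cholinephosphotransferase (0.96), with r from 0.91 to 0.94 without WT fat 3. Those of Fads1 in fat (Rmnd1, Jmy, Mfn1, Pcdh7 and Mlh3) shared no gene with those of Fads2 (Ppp1r12a, Gclc, Rnf144b, Hacd3 and Mcu). The r values of the latter fell from at least 0.97 to between 0.80 and 0.94 without KO fat 2. In liver, those of Scd2 were Dhx57, Col6a3, Ank3, Sesn3 and Klf7.

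KO liver 1 held the highest liver level of all 5 tested desaturases. It was the highest library for 10.1% of all genes tested in liver. Against the median of the 10 liver libraries, Scd1 was 4.73-fold higher there, Fads2 1.46-fold, Fads1 1.38-fold, Fads3 1.21-fold and Scd2 1.15-fold. Of 12 fatty acid synthesis genes, 11 were highest in KO liver 1, and of 23 genes of cholesterol synthesis and uptake, 15 were. Examples chosen after their values were seen are fatty acid synthase Fasn, at 1905 CPM in KO liver 1 and 382 to 995 CPM in the other 9, acetyl-CoA carboxylase Acaca, at 538 against 161 to 247 CPM, and Elovl6, which elongates palmitate before desaturation, at 555 against 97.2 to 174 CPM. Acetyl-CoA synthetase Acss2 stood at 926 CPM against 123 to 458 CPM. The exception among the 12 synthesis genes was Mid1ip1, at 64.9 CPM or 0.763 of the median. Srebf1, which encodes SREBP-1, was not highest there, at 367 CPM in KO liver 1 against 206 to 677 CPM in the others.

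**Figure D5:**
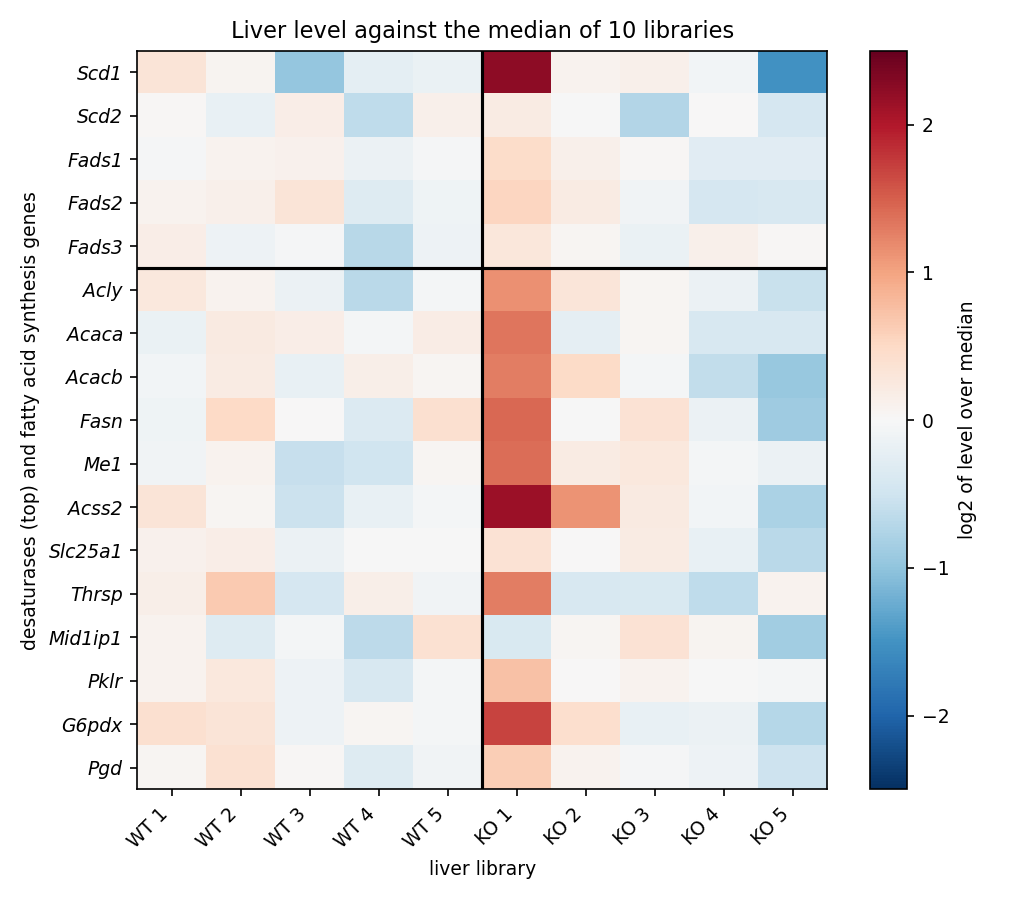
Level of the 5 tested desaturases (above the line) and of 12 fatty acid synthesis genes (below) in each liver library, as the log2 ratio to the median of the 10 libraries (colour). KO 1 is high in 16 of the 17 genes, with Scd1 at 4.73-fold and Fasn at 2.71-fold of the median.

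In KO against WT, no gene of the pathway lists passed by edgeR in fat or liver. In fat, 20 of 22 tested genes of cholesterol synthesis and uptake had a positive log2 difference, with a median of 0.36 against 0.00 over all genes, and 6 had an unadjusted p under 0.05, as did 7.13% of all genes. Among those with the smallest p were Hmgcs1 (ratio 1.42, 1.13 to 1.79), an enzyme of the mevalonate pathway, Idi1 (1.67, 1.15 to 2.41) and Hsd17b7 (1.33, 1.01 to 1.75). Of 11 fatty acid synthesis genes, 9 were positive, with a median of 0.28 and 0 with an unadjusted p under 0.05. The 4 with the smallest p were Mid1ip1 (ratio 1.28), Acly, the enzyme that supplies cytosolic acetyl-CoA (1.59), Acss2 (1.52) and Pgd (1.18). KO fat 2 was the highest fat library for 16 of the 22 cholesterol genes and 8 of the 11 synthesis genes, against 17.4% of all genes. By mean log2 CPM with all libraries, 20 of 22 and 9 of 11 were positive, with medians of 0.32 and 0.32. Without KO fat 2 these were 18 of 22 and 9 of 11, with medians of 0.23 and 0.16. Markers of other cells also differed between the genotypes in fat, with none called. All 7 erythroid markers were negative (median -1.25, 6 with an unadjusted p under 0.05; summed level 359 to 2172 CPM in WT and 275 to 882 CPM in KO). Of 9 macrophage markers 7 were negative (median -0.38; 506 to 1711 CPM and 370 to 1149 CPM), and of 8 adipocyte markers 7 (median -0.36). Their part in the list differences was not tested.

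Of 6 electron donors tested in fat, 5 were positive, with a median of 0.04, and 0 had an unadjusted p under 0.05. By mean log2 CPM 5 of 6 were positive with all libraries (median 0.03) and 4 of 6 without KO fat 2 (median 0.004). Cyb5a ran from 234 to 372 CPM in WT and from 199 to 328 CPM in KO. Cyb5b, among the 5, had 393, 388, 179, 255 and 219 CPM in WT and 517, 501, 274, 337 and 482 CPM in KO (ratio 1.47, 0.982 to 2.19; adjusted p = 0.687 by edgeR). Cyb5b was also higher by ratio in liver (1.18, 1.02 to 1.36; adjusted p = 0.317), where 1745 genes (13.1%) had an unadjusted p under 0.05. Its liver ranges did not overlap, as for 2.84% of genes tested in liver, with 508 to 578 CPM in WT and 585 to 722 CPM in KO. Of 10 elongation genes in fat, 5 were positive and 5 negative (by mean log2 CPM 6 and 4, and 3 and 7 without KO fat 2), with Elovl6 at a ratio of 1.67 (0.775 to 3.59). Among 18 regulators, 9 were positive and 9 negative, and 1, the LXR beta gene Nr1h2, had an unadjusted p under 0.05 (ratio 0.846, 0.754 to 0.95; adjusted p = 0.687). The lists of PPAR alpha targets, LXR targets and peroxisomal genes held 0 genes with an unadjusted p under 0.05 in either tissue. Of 13 genes that use the desaturated chains, 7 were positive, and Gpam, which starts glycerolipid synthesis, had a ratio of 0.816 (0.679 to 0.98; adjusted p = 0.687).

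In liver, 10 of 12 fatty acid synthesis genes were positive, with a median of 0.21, and 0 had an unadjusted p under 0.05. By mean log2 CPM it was 8 of 12 with all libraries (median 0.03) and 5 of 12 without KO liver 1 (median -0.17). All 9 macrophage markers were negative in KO liver (median -0.69, 8 with an unadjusted p under 0.05; summed level 476 to 875 CPM in WT and 410 to 523 CPM in KO). So were all 7 erythroid markers (median -1.03, 5 with an unadjusted p under 0.05; 456 to 1404 CPM and 278 to 666 CPM). None of these markers was called, and their part in the list differences was not tested. The malic enzyme Me1 had a ratio of 1.54 (0.986 to 2.4) and Acss2 one of 1.9 (0.851 to 4.26). Both were highest in KO liver 1. Me1 stood at 696 CPM there against 177 to 318 CPM in the other liver libraries, and Acss2 at 926 against 123 to 458 CPM. Of 23 cholesterol genes 12 were positive and 11 negative, with a median of 0.00. By mean log2 CPM 8 of 23 were positive with all libraries (median -0.02) and 4 of 23 without KO liver 1 (median -0.19). Of 12 elongation genes 7 were positive and 5 negative, with Elovl5 at 1.33 (1 to 1.77; adjusted p = 0.376). Among 18 regulators, Sp1, a general factor of many promoters, had the smallest p, at 66.2, 73.4, 78.9, 69.9 and 76.7 CPM in WT liver and 84.9, 97.7, 92.4, 89.4 and 90.5 CPM in KO liver. These ranges did not overlap, as for 2.84% of genes tested in liver, and Sp1 did not pass (ratio 1.24, 1.1 to 1.4; adjusted p = 0.218 by edgeR).

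Genes beside the clusters were described in the same way. Of 6 tested neighbours of the Scd cluster, 2 were positive and 4 negative in fat, and 3 and 3 in liver, with Chuk, a kinase of the NF-kappaB pathway, at ratios of 1.13 and 1.15, and none had an unadjusted p under 0.05. Of 7 tested neighbours of the Fads cluster in fat all were negative, with a median of -0.20, among them Tmem258 (ratio 0.87, 0.728 to 1.04) and Myrf (0.651, 0.349 to 1.22), and none had an unadjusted p under 0.05. By mean log2 CPM all 7 were negative with all libraries (median -0.19), and without KO fat 2 it was 5 of 7 (median -0.03). WT fat 3 was the highest library for 6 of these 7, against 18.5% of all genes. In liver 3 of 6 were positive, and Rab3il1 had a ratio of 0.743 (0.557 to 0.991; adjusted p = 0.367). In WT, fat against liver, 4 of 6 tested neighbours of the Scd cluster were lower in fat (35.9% of all genes) and none higher (38.4%), while Scd1 and Scd2 were higher. For Hif1an (ratio 0.746) and Bloc1s2 (0.679) the difference was smaller than the shift between scalings, and for Chuk (0.179) it was larger. Among neighbours of the Fads cluster 3 were higher and 1 lower in fat, where 38.4% and 35.9% of all genes were, with Dagla, a diacylglycerol lipase, at a ratio of 6.32 and Rab3il1 at 3.73.

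Among other membrane desaturases and hydroxylases, Fads6 resembled Fads2 in its tissue difference, with 3.45 ± 0.368 CPM in WT fat and 234 ± 37.3 CPM in WT liver (ratio 0.0149, 0.0118 to 0.0187). The sterol desaturase Sc5d and the sterol oxidase Msmo1 were also lower in fat, at ratios of 0.106 and 0.117. In KO against WT, Sc5d had ratios of 1.4 (0.955 to 2.05) in fat and 1.22 (1 to 1.48) in liver, neither of which passed (adjusted p = 0.687 and 0.38 by edgeR). Degs2, a sphingolipid desaturase, had a ratio of 2.1 in fat (1 to 4.42; adjusted p = 0.687) and 0.704 in liver (0.473 to 1.05; adjusted p = 0.432).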

How the data were processed

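Per the labels' protocols, Qiagen RNeasy kits were used for RNA and a TruSeq kit that keeps strand for the libraries. Trim Galore 0.2.8, STAR 2.4.0d, RSEM 1.2.12, DESeq2 and build GRCm38 are named in the submitters' processing notes, without order or settings. The sources used here give neither the annotation release nor the strand setting. Deposited by the authors were expected counts (RSEM's estimate for each gene, without normalization), which were rounded here to whole numbers. Of 48440 gene IDs, 48058 matched a symbol in the GENCODE annotation of GRCm38, which also gave lengths and sequences.

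Genes were kept with filterByExpr (minimum count 10, total 15) and tested in R 4.3.3 by the quasi-likelihood method of edgeR 4.0.16 with limma 3.58.1 (TMM, robust fit) within the groups compared, or in all 20 libraries for the difference of effects. P-values were adjusted by Benjamini-Hochberg over all genes tested, and an adjusted p under 0.05 was called. Log2 CPM used a prior count of 2, exact permutation tests all 252 assignments, and correlations 100000 permutations. Of the steps, only the edgeR fits were tested on simulated data, in which all genes had the same dispersion (spread between libraries beyond counting error). Named are the 7 desaturases, Prkce, up to 4 genes with the smallest p of each list described, the 5 most similar genes, and examples said to be chosen after seeing values. A few list genes that this rule names are not reported here. Of 230 list symbols, 229 were in the table. The desaturases and lists were chosen with earlier results of these data known.

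Alternatives were DESeq2 1.42.0, quality-weighted limma-voom, RLE and upper quartile factors, other filters, other gene lengths, a single fit of all 20 libraries, a block for the replicate number, and omission of single libraries. Added once the data had been seen were library totals without scaling factors, omission of libraries with transcripts of other tissues, and list counts without KO fat 2 or KO liver 1. Depth limits the precision of Scd3 and Scd4 most. Replicate pairs differed by more than counting error in each group (chi-square per degree of freedom at least 14.7), so none was a duplicate.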

Additional observations from a re-analysis of the deposited data

Results flagged for a closer look

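In groups of 5 libraries, the gap from the highest or lowest library to its nearest neighbour was set against the whole range, with a limit of 0.71, which chance passes in about 1 of 20 groups. Of the 32 groups checked (8 quantities, 4 groups each), 3 passed. Scd1 in KO liver reached 34401 CPM in KO liver 1, against 2553 to 7912 CPM in the other 4 libraries. Fads2 in KO fat reached 41 CPM in KO fat 2, against 7.9 to 12.2 CPM in the others. The Fads2 to Fads1 ratio in KO fat reached 0.474 in the same library, against 0.131 to 0.187 in the others.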

How the results depend on the processing

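Of 796 alternative values, most kept direction and side of the threshold, and no alternative called a desaturase in KO against WT. The number of genes called in KO against WT was 13 in fat by DESeq2 (0 by edgeR), and 2 for the difference of effects by DESeq2 (0). In liver (1 by edgeR) it was 137 by DESeq2, 15 without a filter, 3 by limma-voom, 3 without libraries with skeletal muscle transcripts, 2 with all 20 libraries in 1 fit, and 0 to 3 with single libraries left out. The Scd2 to Scd1 difference in fat ran from 0.19 to 0.65 and the number of correlated pairs from 2 to 5 with single libraries left out. Reversed log2 differences were small or rested on 1 library. Fads1 in liver was -0.0132 by limma-voom and -0.0973 to 0.0988 with single libraries left out, Fads2 -0.20 to 0.0579, Scd2 -0.21 to 0.0211 and Scd1 -0.078 to 1.1. Fads2 in fat was -0.18 without KO fat 2 and WT fat 5, left out for urothelial or uterine transcripts. With single libraries left out it was -0.17 to 0.71. The summed level of uterus and oviduct markers was 75.7 CPM in KO fat 2 and 57.8 CPM in WT fat 5. It was 36.7 CPM in WT fat 3, which was kept, and 5.6 to 9.83 CPM in the other fat libraries. Between tissues, Fads2 was -0.15 without KO fat 2 and WT fat 5. With single libraries left out it was -0.15 to 0.74, and Scd1 -0.72 to 0.46. Beyond the libraries left out, the cause was not tested.

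With the replicate number as a block, 0 genes were called in fat, 3 in liver and 0 for the difference of effects, and the Scd1 difference between tissues turned to 0.10. Scd1, fat against liver in KO, was called (1.70, adjusted p = 0.0365 by edgeR). Other calls on desaturases did not change. KO and WT libraries of 1 number, which come from different mice, had r from -0.17 to 0.51 in fat and -0.23 to 0.25 in liver. Of these, 3 of 5 in fat and 1 of 5 in liver matched best with their own number. Fat and liver libraries of 1 number had r from -0.0149 to 0.167 in WT (2 of 5) and -0.0138 to 0.0514 in KO (1 of 5). The labels do not say whether such libraries came from 1 mouse. The main fits took all libraries as independent.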
